A study of Mus musculus with 9 samples.

Results

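The genes described are 10 transcription factors of the mouse trophoblast, the outer cell lineage of the embryo that builds the placenta: Hand1, Cdx2, Elf5, Gata2, Gata3, Tfap2c, Tfap2a, Tead4, Ets2 and Esx1. They were chosen by name, as all rows of the gene count table that carry 1 of these symbols, and make up 10 of its 54532 Ensembl genes. Of the 10, 6 passed the filter on low counts (Hand1, Cdx2, Gata2, Tfap2c, Tead4 and Ets2), among 16178 genes that did. Elf5, Gata3, Tfap2a and Esx1 did not, and their counts are given without a place in the tests.

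RNA was sequenced from 3 libraries each of ABSCs, ALSCs and AFSCs, cultured cells of the strain Sv129 x GOF/GFP F1. AFSCs were derived from blastocysts on fibronectin in Activin A and bFGF, and the labels liken them to epiblast stem cells. ABSCs were made from AFSCs by more than 5 passages in Activin A and BMP4, and the labels liken them to trophoblast stem cells. ALSCs were made from AFSCs in the same way in another medium, taken here to be Activin A with LIF (leukaemia inhibitory factor). The protocol lists a LIF recipe but calls it AB medium, so this reading rests on the AL name. Activin A and the same base medium with N2 and B27 are thus shared by all 3 groups. Passage numbers were 25 to 30 for ABSCs, 20 to 25 for ALSCs and 15 to 20 for AFSCs, so passage and medium cannot be told apart. An RNeasy Micro kit is named for ALSC RNA beside an RNeasy Mini kit for all cells, and the kit and the group cannot be told apart either. The labels do not say whether the 3 libraries of a group came from separate derivations or cultures, so p-values measure the spread between these libraries, which may be technical.

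In the blastocyst, TEAD4, a DNA-binding partner of the Hippo pathway effector YAP, acts upstream of CDX2, the caudal-type homeobox factor that specifies the trophectoderm. Trophoblast stem cells are then kept in self-renewal by a circuit in which CDX2, EOMES, ELF5 and TFAP2C support one another, with GATA3, GATA2, TFAP2A and ETS2 also active in the lineage. HAND1, a basic helix-loop-helix factor, drives trophoblast giant cell formation and is also a BMP-responsive factor of extraembryonic and lateral mesoderm, and ESX1 is an X-linked homeobox factor of the placenta. The comparisons ask which of these factors cells in BMP4 have and lack, set against cells in bFGF and cells in LIF.

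Library totals over Ensembl genes ran from 18978651 counts in ALSC 2 to 21578737 counts in AFSC 3. Levels are CPM (counts scaled to a common library size) after scaling by trimmed mean of M-values (TMM), and a count of 3, the most that a count of 0 allows, corresponds to 0.138 to 0.157 CPM per library (counting error only). Levels of different genes are compared as TPM, which also divide by the gene length in the table. "Rose" and "fell" are used for a Benjamini-Hochberg adjusted p under 0.05 in edgeR's quasi-likelihood test over all genes tested, and values in parentheses after a gene are log2 fold changes from that fit. Libraries numbered 1 stood apart from numbers 2 and 3 in all 3 groups, with 37% of all genes called between them, so results are also given within numbers or without these libraries. These are bulk samples, so fewer cells with a transcript and less of it per cell cannot be told apart.

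Hand1 (chromosome 11, 57828705 to 57832818) was the factor that set ABSCs apart. Its level was 244, 208 and 188 CPM in the 3 ABSC libraries, 2.53, 1.88 and 1.83 CPM in the ALSC libraries and 0.155, 0.189 and 0.376 CPM in the AFSC libraries. All ABSC libraries lay far above all others, and the ALSC libraries lay above the AFSC libraries without overlap. Hand1 rose in ABSCs against AFSCs by 9.75 on the log2 scale (SE 0.22, 95% interval 9.26 to 10.23, edgeR adjusted p = 9.17e-09). It also rose in ABSCs against ALSCs (6.67, SE 0.17, edgeR adjusted p = 2.99e-08) and in ALSCs against AFSCs (3.08, SE 0.32, edgeR adjusted p = 0.000701). In AFSCs it rested on 3, 4 and 8 counts, near what a count of 0 allows. With 335 ± 51.1 TPM in ABSCs (SD, n = 3), Hand1 ranked 11 among the 1469 genes to which the table gives a transcription factor family, against rank 765 in ALSCs and rank 1033 in AFSCs.

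**Figure D1:**
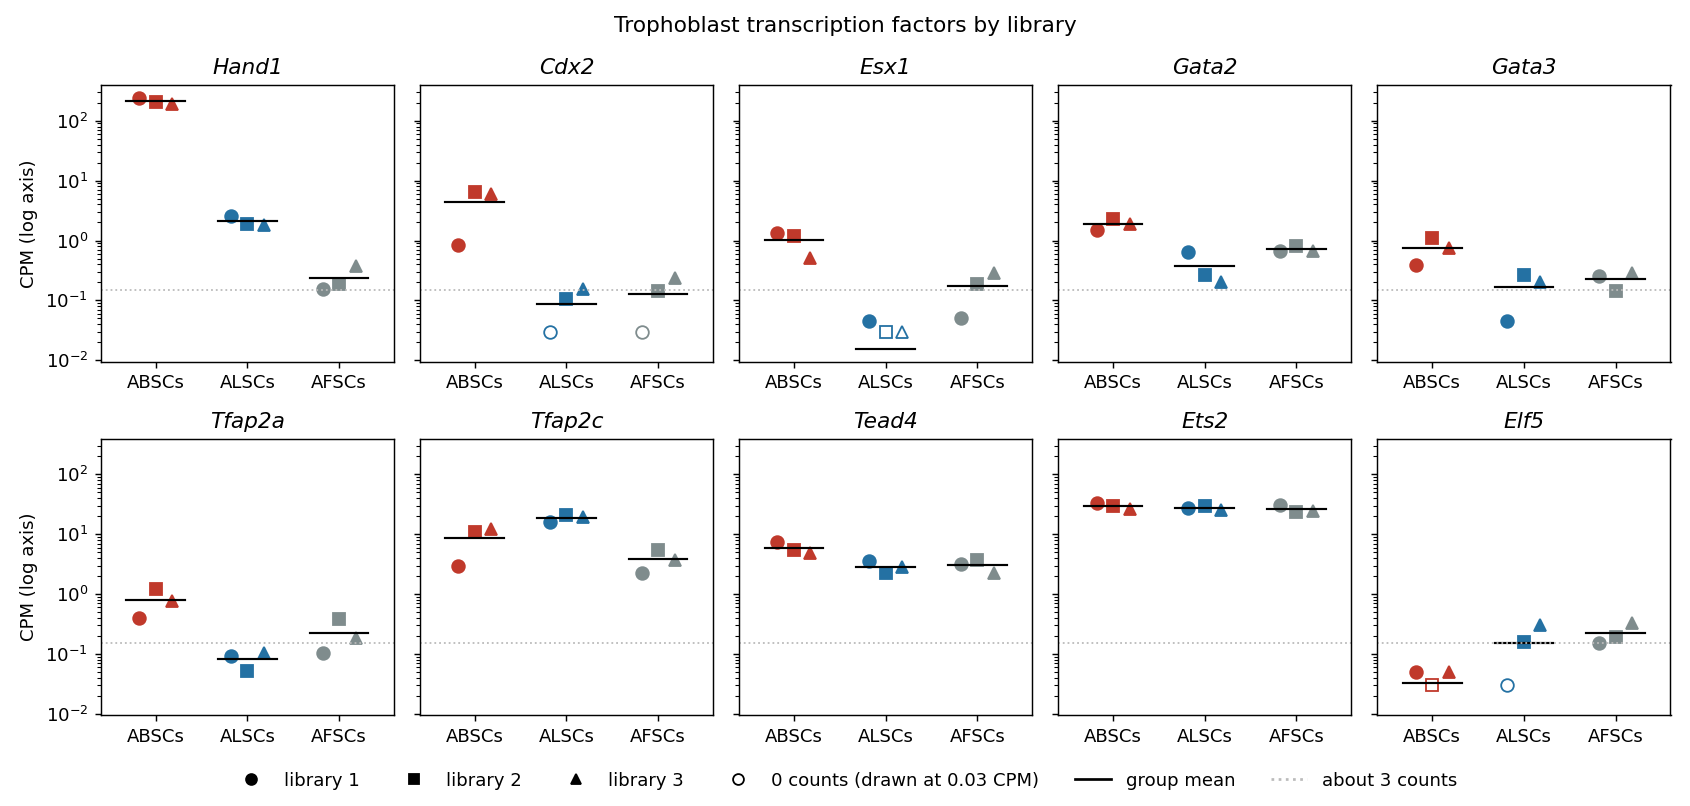
CPM of each factor (log axis) in every library, with groups from left to right ABSCs, ALSCs and AFSCs, library numbers as symbols, and group means as black lines. Open symbols are libraries with 0 counts, and the dotted line marks about 3 counts. Hand1 spans from 0.155 CPM in AFSC 1 to 244 CPM in ABSC 1, while Ets2 stays between 23.7 and 33.2 CPM in all 9 libraries.

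Cdx2 (chromosome 5, 147300805 to 147307270) was detected above the counting floor in ABSCs, at a level far below that of Hand1. It stood at 0.835, 6.43 and 6.07 CPM in the ABSC libraries, 0, 0.104 and 0.153 CPM in the ALSC libraries and 0, 0.142 and 0.235 CPM in the AFSC libraries. Each ABSC library lay above all 6 others, but ABSC 1 held 17 counts where ABSC 2 and ABSC 3 held 123 and 120. Cdx2 rose against AFSCs (log2 fold change 5.04, SE 0.93, 95% interval 2.98 to 7.11, edgeR adjusted p = 0.00839) and against ALSCs (5.64, SE 1.00, edgeR adjusted p = 0.00615). Against AFSCs the call was lost without the filter on low counts (edgeR adjusted p = 0.0659). ALSCs and AFSCs, with 5 and 8 counts in all, did not differ by the test (-0.60, 95% interval -4.00 to 2.81, edgeR adjusted p = 0.873), at a depth where only a large change could be seen. Cdx2 passed the filter through the ABSC libraries alone.

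The gap between ABSCs and AFSCs in Cdx2 was of similar size within each library number. The log2 ratio of same-numbered libraries, with 0.5 counts added, was 5.06, 5.29 and 4.56 for ABSCs over AFSCs and 5.23, 5.63 and 5.10 for ABSCs over ALSCs. Of these, the ratios of number 1 rest on 0 counts in AFSC 1 and ALSC 1, and so depend on the added 0.5. Libraries numbered 1 had less Cdx2 than numbers 2 and 3 (log2 difference -2.98, SE 0.38) and less Tfap2c (-0.96, SE 0.28), but slightly more Hand1 (0.31, SE 0.08). Without the libraries numbered 1, Cdx2 stood at 5.01 against AFSCs (edgeR adjusted p = 1.64e-11) and Hand1 at 9.42 (edgeR adjusted p = 1.46e-25). Cdx2 then passed the filter through ABSC 2 and ABSC 3 alone, so its call is given as a value and not as support.

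**Figure D2:**
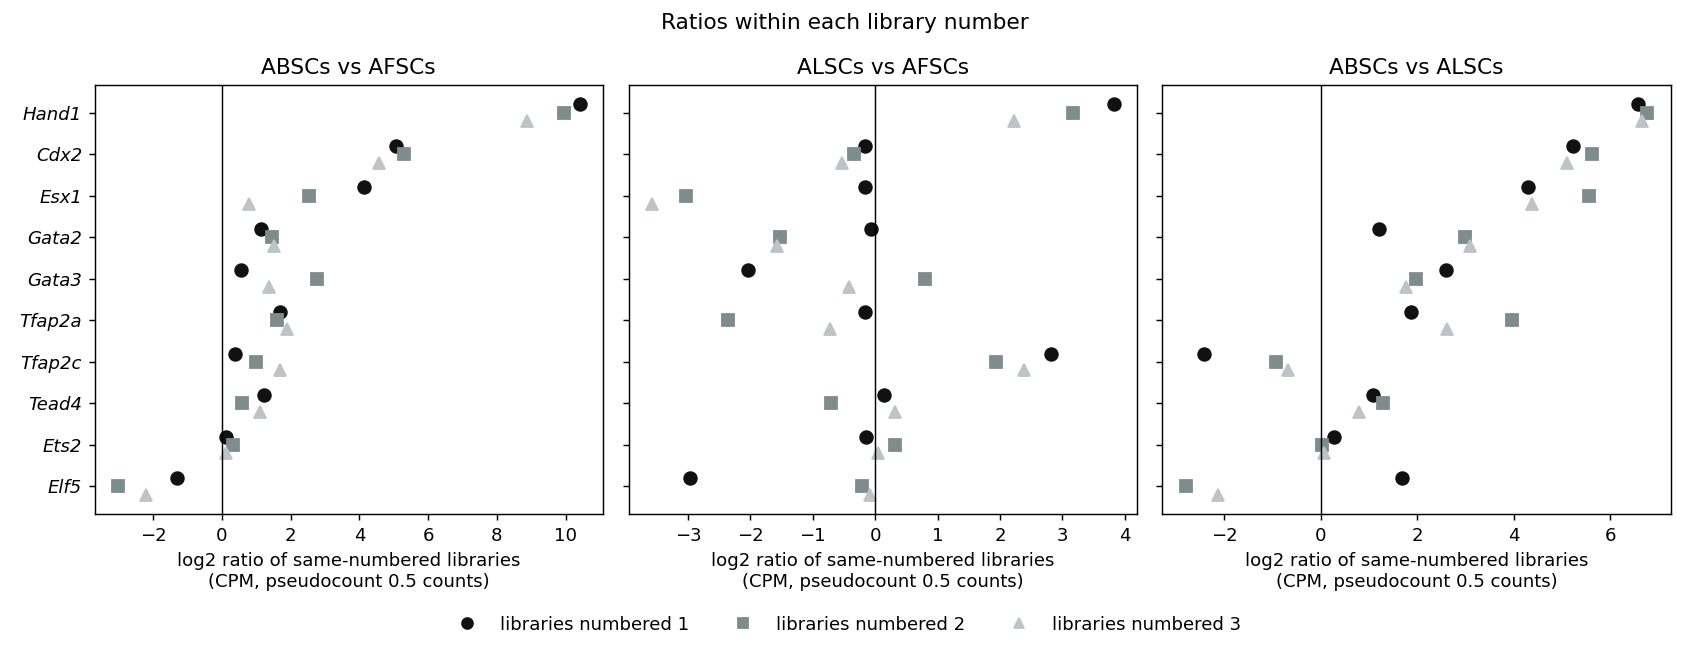
Log2 ratios of same-numbered libraries (x axis, CPM with 0.5 counts added) for each factor in the 3 comparisons, with library numbers 1, 2 and 3 as circles, squares and triangles and a scale of its own in each panel. Hand1 and Cdx2 lie right of 0 in each number for ABSCs over AFSCs and over ALSCs, while Elf5 lies left of 0 for ABSCs over AFSCs.

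Elf5 (chromosome 2, 103411688 to 103450989), an ETS factor that marks committed trophoblast stem cells, was at or near 0 in ABSCs. Its counts were 1, 0 and 1 in the ABSC libraries, 0, 3 and 6 in the ALSC libraries and 3, 4 and 7 in the AFSC libraries. ABSCs thus held the fewest Elf5 counts of the 3 groups, 2 against 9 in ALSCs and 14 in AFSCs. The ratio of summed counts, scaled for library size, was 0.149 for ABSCs over AFSCs, with a 95% counting interval of 0.0165 to 0.649. In the fit without a filter, over 32197 genes, the difference did not pass (log2 fold change -2.53, SE 1.09, edgeR adjusted p = 0.299).

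Both GATA factors were low. Gata2 (chromosome 6, 88193891 to 88207032), a zinc finger factor of trophoblast and blood, had 1.52, 2.25 and 1.92 CPM in ABSCs, 0.643, 0.261 and 0.204 CPM in ALSCs and 0.670, 0.803 and 0.658 CPM in AFSCs. The ABSC libraries lay above all others, and the ALSC libraries below the AFSC libraries. Gata2 rose in ABSCs against ALSCs (2.32, SE 0.40, edgeR adjusted p = 0.00496) and against AFSCs (1.41, SE 0.36, edgeR adjusted p = 0.0414). The call against AFSCs was lost at edgeR adjusted p = 0.158 without ABSC 2, 0.118 without ABSC 3, 0.0549 without ALSC 2, 0.114 without AFSC 1, 0.117 without AFSC 2 and 0.156 without AFSC 3. ALSCs against AFSCs gave -0.91 (95% interval -1.86 to 0.04, edgeR adjusted p = 0.253), and -1.63 (edgeR adjusted p = 0.0224) without the libraries numbered 1.

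Gata3 (chromosome 2, 9857078 to 9890034), which acts beside CDX2 in the trophectoderm, had 8, 21 and 15 counts in ABSCs, 1, 5 and 4 counts in ALSCs and 5, 3 and 6 counts in AFSCs. The ABSC libraries did not overlap the others, yet their mean was 0.750 ± 0.353 CPM (SD, n = 3). Without a filter the test called Gata3 against ALSCs (2.13, SE 0.61, edgeR adjusted p = 0.0280) but not against AFSCs (1.70, SE 0.58, edgeR adjusted p = 0.103). Without the libraries numbered 1 it passed the filter, through the 21 and 15 counts of ABSC 2 and ABSC 3 alone, so the call it then gave against AFSCs (2.10, edgeR adjusted p = 0.00484) is given as a value and not as support. The table lists 3 genes that overlap Gata3, with 2 counts in all 9 libraries together.

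The AP-2 factors differed from each other in where they were high. Tfap2c (chromosome 2, 172549593 to 172558622), which encodes AP-2 gamma of trophoblast stem cells and germ cells, had 2.90, 10.8 and 12.2 CPM in ABSCs, 15.7, 20.8 and 19.7 CPM in ALSCs and 2.22, 5.39 and 3.76 CPM in AFSCs. The highest level was thus in LIF and not in BMP4, with all ALSC libraries above all others. Tfap2c rose in ALSCs against AFSCs (2.30, SE 0.47, edgeR adjusted p = 0.0192). This call was lost without a filter (edgeR adjusted p = 0.120), without ALSC 2 (0.0548), without ALSC 3 (0.0559), without AFSC 1 (0.0569) and without AFSC 3 (0.0841).

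ABSCs did not differ in Tfap2c from AFSCs by the test (1.18, 95% interval 0.13 to 2.23, edgeR adjusted p = 0.185), nor from ALSCs (-1.12, 95% interval -2.10 to -0.13, edgeR adjusted p = 0.143). Both intervals are unadjusted, and ABSC 1, at 2.90 CPM, overlapped the AFSC libraries. Without ABSC 1 the difference from AFSCs was called (1.60, edgeR adjusted p = 0.00571), and with the replicate block the difference from ALSCs was called (-1.24, edgeR adjusted p = 0.0247). Without the libraries numbered 1 both were called (1.34, edgeR adjusted p = 9.26e-08, and -0.80, edgeR adjusted p = 9.05e-06).

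Tfap2a (chromosome 13, 40715302 to 40738376), which encodes AP-2 alpha of surface ectoderm, neural crest and trophoblast, had 8, 23 and 15 counts in ABSCs, 2, 1 and 2 counts in ALSCs and 2, 8 and 4 counts in AFSCs. Its order was the reverse of that of Tfap2c for ALSCs, which held the fewest Tfap2a counts. The lowest ABSC library, at 0.393 CPM, lay just above the highest AFSC library, at 0.378 CPM. Without a filter it was called against ALSCs (3.16, SE 0.68, edgeR adjusted p = 0.00208) and not against AFSCs (1.78, SE 0.58, edgeR adjusted p = 0.0795). The 3 antisense genes that overlap it carried 9, 1 and 0 counts over all libraries.

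Tead4 (chromosome 6, 128224288 to 128300823), the TEA-domain factor upstream of Cdx2 in the embryo, had 7.52, 5.54 and 4.86 CPM in ABSCs, 3.54, 2.25 and 2.80 CPM in ALSCs and 3.20, 3.69 and 2.26 CPM in AFSCs. All ABSC libraries lay above all others, by a modest margin. Tead4 rose against AFSCs (0.97, SE 0.26, edgeR adjusted p = 0.0476) and against ALSCs (1.06, SE 0.26, edgeR adjusted p = 0.0286). The call against AFSCs was lost in 8 of the 9 fits that left out 1 library, all but that without ALSC 1, at edgeR adjusted p = 0.0553 to 0.179. Against ALSCs it was lost without ABSC 1 (0.0563), ABSC 2 (0.0708), ALSC 2 (0.0899) and ALSC 3 (0.0805). ALSCs and AFSCs did not differ by the test (-0.09, 95% interval -0.68 to 0.51, edgeR adjusted p = 0.899).

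Ets2 (chromosome 16, 95702075 to 95721051), an ETS factor that trophoblast stem cells need, was the steadiest of the 10. It had 33.2, 29.9 and 26.4 CPM in ABSCs, 27.5, 29.5 and 25.1 CPM in ALSCs and 30.4, 23.7 and 24.3 CPM in AFSCs. All groups overlapped, and no comparison was called. The 95% interval of the log2 difference was -0.09 to 0.47 for ABSCs over AFSCs, -0.16 to 0.41 for ABSCs over ALSCs and -0.21 to 0.35 for ALSCs over AFSCs.

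Esx1 (chromosome X, 137115397 to 137122083), the placental homeobox factor, had 27, 23 and 10 counts in ABSCs, 1, 0 and 0 counts in ALSCs and 1, 4 and 6 counts in AFSCs. ABSCs were higher than all other libraries, at 1.01 ± 0.442 CPM (SD, n = 3), and ALSCs were at or near 0. Because ABSC 3 held only 10 counts, Esx1 missed the filter. Without a filter it was called in ABSCs against AFSCs (2.48, SE 0.59, edgeR adjusted p = 0.00663). Against ALSCs the ratio of summed counts was 61.3, with a 95% counting interval of 10.6 to 2462 that reflects the single ALSC count.

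**Figure D3:**
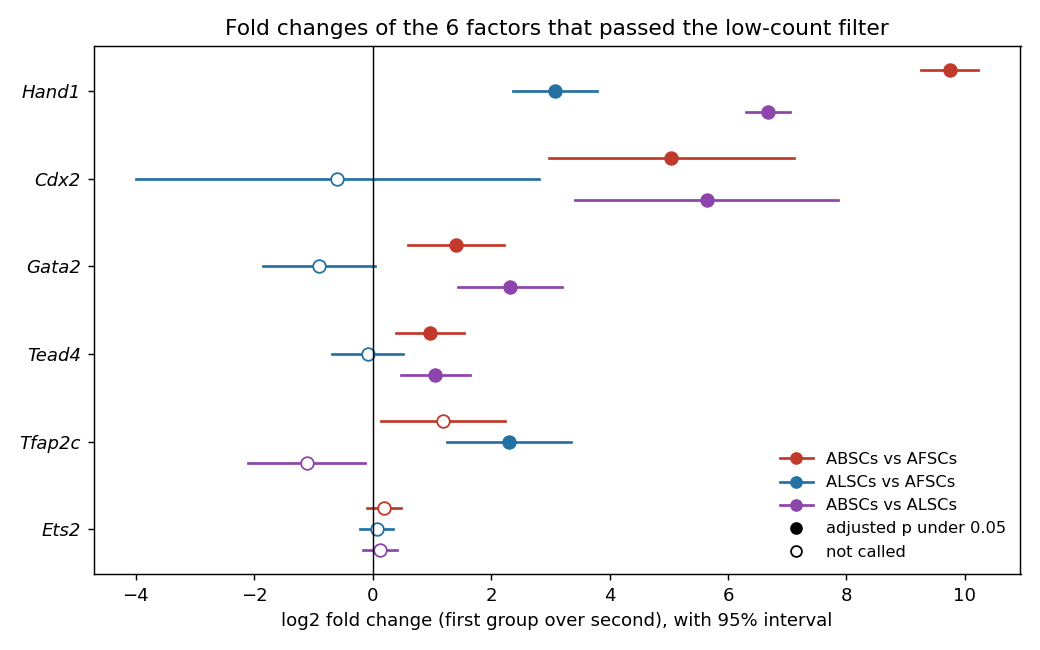
Log2 fold changes of the 6 factors that passed the filter (x axis, with 95% intervals), for ABSCs over AFSCs in red, ALSCs over AFSCs in blue and ABSCs over ALSCs in purple, with filled points for an adjusted p under 0.05. Hand1 and Cdx2 lie at 9.75 and 5.04 for ABSCs over AFSCs, and the Ets2 intervals all include 0.

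Counted together, 4 of the 6 factors tested rose and 0 fell in ABSCs against AFSCs (Hand1, Cdx2, Gata2 and Tead4), where 3.98% of all genes tested rose, 4% fell and 7.98% were called in either direction. Of the 6, only 2 were called, Hand1 and Cdx2, without ABSC 2, ABSC 3, ALSC 2, AFSC 1, AFSC 2 or AFSC 3. In ABSCs against ALSCs, 4 of the 6 (Hand1, Cdx2, Gata2 and Tead4) rose and 0 fell, where 5.41% of all genes rose, 5.56% fell and 11% were called in either direction. The replicate block added Tfap2c in ABSCs against ALSCs, where it called 28.5% of all genes. In ALSCs against AFSCs, 2 of the 6 (Hand1 and Tfap2c) rose and 0 fell, where 3.54% of all genes rose, 3.5% fell and 7.04% were called in either direction. Without overlap between the groups' libraries were 4 of the 6 in ABSCs against AFSCs (27.4% of all genes tested), 5 in ABSCs against ALSCs (28.9% of all genes tested) and 3 in ALSCs against AFSCs (28.5% of all genes tested). The test of any difference among the groups called 5 of the 6, all but Ets2, where 14.8% of all genes were called. ABSCs and ALSCs were compared with the same AFSC libraries, so these counts are not independent. Cdx2 was among the 6 only through its ABSC counts, so the filter favoured its calls in both ABSC comparisons. Its place in these counts is therefore no support. The median log2 change of the 6, Cdx2 included, was 1.29 for ABSCs over AFSCs, beside -0.0043 over all genes tested.

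Per length, the 10 factors were made up of different genes in each medium. Their summed level was 374 ± 46.5 TPM in ABSCs, 38.5 ± 1.69 TPM in ALSCs and 21.9 ± 1.09 TPM in AFSCs (SD, n = 3 each). Hand1 took 89.5% ± 2.50 of it in ABSCs, 8.82% ± 1.93 in ALSCs and 1.76% ± 0.962 in AFSCs. With CPM in place of TPM, its mean share in ABSCs was 79.8%. In ALSCs the largest shares were those of Tfap2c, at 42.8% ± 4.80, and Ets2, at 39.9% ± 2.21. In AFSCs Ets2 led with 65.2% ± 8.43. Within ABSCs the TPM levels ran from Hand1 down to Ets2 at 16.2 ± 2.10, Tfap2c at 7.30 ± 4.18, Cdx2 at 6.10 ± 4.27 and Tead4 at 5.21 ± 1.31, and the last 3 lay within each other's spread. Esx1 (1.60 ± 0.712), Gata2 (1.10 ± 0.191), Gata3 (0.587 ± 0.268), Tfap2a (0.498 ± 0.250) and Elf5 (0.0178 ± 0.0154) were lower still.

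**Figure D4:**
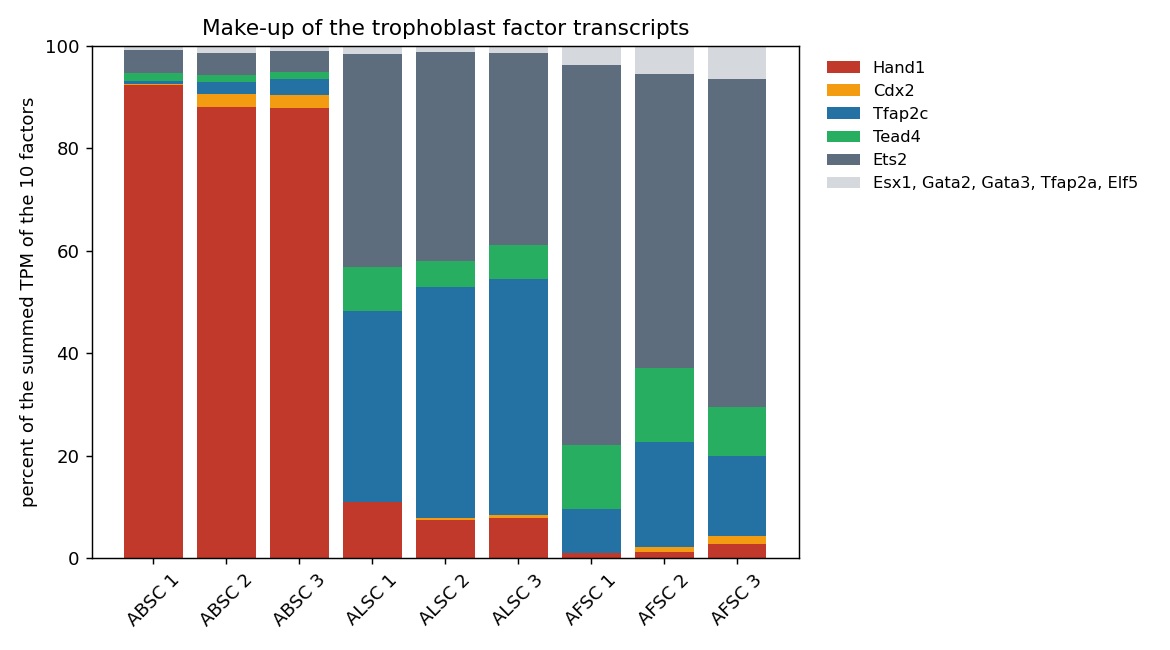
Share of each factor in the summed TPM of the 10 factors (y axis, percent) for each library, with bars from left to right ABSC, ALSC and AFSC libraries. Hand1 fills 87.9% to 92.4% of the ABSC bars, and Ets2 57.4% to 74.2% of the AFSC bars.

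Sequence before transcript starts was available from RefSeq (GRCm38.p6) for 7 of the 10 factors, in 10 windows of 250 bases. As examples, 1 window each is shown for 3 of the factors that were higher in every ABSC library than in all others (Cdx2, Esx1 and Gata3) and for Elf5, which was at or near 0 there. These 4 were picked with their motif matches known. The Gata3, Esx1 and Elf5 windows lie inside the gene spans given above, before starts internal to those spans, and not at the annotated 5′ end. Each runs 5′ to 3′ on the strand of the gene and ends at the base before the start. Capitals mark matches on either strand to short motifs of the factor families. CANNTG is the E-box, bound by helix-loop-helix factors such as HAND1. The motif searched for AP-2 was GCCNNNGGC, that for TEAD factors was GGAATG, and that for zinc fingers of the GATA family was AGATAA. For SMAD proteins, which carry the BMP signal, the letters GGCGCC were searched, and for CDX factors the letters TTTATG.
Cdx2, chr5:147307250-147307499, minus strand: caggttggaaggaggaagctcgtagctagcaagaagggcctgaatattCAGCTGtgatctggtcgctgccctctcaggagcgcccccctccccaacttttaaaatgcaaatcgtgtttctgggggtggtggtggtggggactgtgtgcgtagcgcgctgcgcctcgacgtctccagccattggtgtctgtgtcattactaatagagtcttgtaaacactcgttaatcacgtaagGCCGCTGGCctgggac
Esx1, chrX:137120327-137120576, minus strand: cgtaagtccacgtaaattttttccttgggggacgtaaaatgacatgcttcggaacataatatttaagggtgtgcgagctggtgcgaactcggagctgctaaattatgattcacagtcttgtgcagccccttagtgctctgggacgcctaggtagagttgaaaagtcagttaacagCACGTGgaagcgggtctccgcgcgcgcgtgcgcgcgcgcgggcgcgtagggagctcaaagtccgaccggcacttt
Gata3, chr2:9878601-9878850, minus strand: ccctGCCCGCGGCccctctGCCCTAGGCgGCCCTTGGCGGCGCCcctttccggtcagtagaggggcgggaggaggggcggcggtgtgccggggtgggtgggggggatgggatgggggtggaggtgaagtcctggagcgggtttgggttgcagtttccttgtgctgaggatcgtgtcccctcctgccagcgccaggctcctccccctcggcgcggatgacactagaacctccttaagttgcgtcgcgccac
Elf5, chr2:103423818-103424067, plus strand: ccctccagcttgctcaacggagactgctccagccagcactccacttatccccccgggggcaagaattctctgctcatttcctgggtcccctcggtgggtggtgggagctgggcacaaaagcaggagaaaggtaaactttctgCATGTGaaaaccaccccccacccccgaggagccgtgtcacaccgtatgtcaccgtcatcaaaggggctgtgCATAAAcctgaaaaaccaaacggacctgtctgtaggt
The Cdx2 window held 1 AP-2 match, which begins 16 bases before the RefSeq start, and 1 E-box. The 21 bases of it nearest that start, which include the AP-2 match, lie in a GENCODE exon and inside the gene span given above. The Gata3 window held 3 AP-2 matches and 1 SMAD match, which directly follows the last AP-2 match, so they appear as 1 run of capitals. Esx1 held 1 E-box, while this Elf5 window held 1 E-box and 1 CDX match. Of 32841 promoter windows of the same length, 66.2% held an E-box, 13.7% the AP-2 motif, 12.6% the TEAD motif, 9.99% the GATA motif, 9.59% the SMAD motif and 10.8% the CDX motif. Among windows not shown, the other Elf5 window held 4 E-boxes and 1 TEAD match, and 1 Gata2 window held 1 match each for AP-2, TEAD and SMAD. Of the Tfap2a windows, 1 held 1 CDX match. The other Gata2 and Tfap2a windows and that of Ets2 held 0 matches. A match is only a description of these letters.

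The other genes of trophoblast stem cells were called in both directions or not at all. Of 15 genes listed, 12 were tested, with a list median of -0.21 in ABSCs against AFSCs. There 3 rose and 1 fell, where 3.98% of all genes tested rose and 4% fell. Those that rose were Id2, an inhibitor of helix-loop-helix factors and a BMP target (2.20, SE 0.15), Lifr, the LIF receptor (1.17, SE 0.11), and Klf5, a Krüppel-like factor shared with pluripotent cells (0.85, SE 0.15). Sox2, shared with the epiblast, fell (-0.65, SE 0.13). Eomes, the T-box partner of Cdx2, was at 117 ± 68.8 CPM in ABSCs, 127 ± 64.0 CPM in ALSCs and 122 ± 38.1 CPM in AFSCs, and Esrrb was at 102 ± 14.5, 100 ± 10.7 and 102 ± 5.87 CPM in the same order (SD, n = 3 each). With the replicate block 3 rose and 4 fell, where 19.4% of all genes tested were called in either direction. Without the libraries numbered 1 it was 4 and 4, where 4622 of 16224 genes tested were called. The same shares of all genes apply to the lists below in this comparison and these settings. Rhox6 and Rhox9, placental homeobox genes, had 0 counts in all 9 libraries. The epiblast factor Pou5f1, which trophoblast stem cells lack, stood at 1226 ± 42.4 CPM in ABSCs, 935 ± 30.6 CPM in ALSCs and 1074 ± 42.5 CPM in AFSCs.

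Genes of differentiated trophoblast were in part at 0 and in part expressed in all 3 groups. Of 19 listed, 10 were tested, and 5 had 0 counts in all libraries: Tpbpa of the spongiotrophoblast, Prl3d1 and Prl3b1 of giant cells, Synb of the syncytium and Ctsq of sinusoidal giant cells. In ABSCs against AFSCs the keratin Krt8 rose (0.58, SE 0.11) and Krt7, a keratin of trophoblast, fell to 0.891 ± 0.231 CPM, against 2.67 ± 0.949 CPM in AFSCs (-1.57, SE 0.31). The list median was 0.20. Peg10 averaged 220, 133 and 164 CPM in ABSCs, ALSCs and AFSCs, Krt18 74.1, 47.3 and 63.9, Phlda2 70.8, 55.0 and 62.6, and Bhlhe40 21.4, 22.5 and 25.1. None of these was called in ABSCs against AFSCs. The list's summed level was 475 to 622 CPM in ABSCs, 328 to 344 CPM in ALSCs and 420 to 446 CPM in AFSCs. With the replicate block 4 rose and 1 fell, where 19.4% of all genes tested were called. Without the libraries numbered 1 it was 5 and 3, where 4622 of 16224 were called. Plac1 had 25 counts over all libraries, Syna 12, Pparg 6 and Prl2c2 1.

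Genes of extraembryonic mesoderm and amnion, where Hand1 is also used, were in part high in ABSCs. Of 22 listed, 14 were tested, and 5 rose and 0 fell against AFSCs, where 3.98% of all genes tested rose and 4% fell. The list median was 0.34. The largest rises were those of Evx1, a homeobox gene of the posterior streak (5.41, SE 0.38), the BMP targets Msx1 (4.12, SE 0.59) and Msx2 (3.09, SE 0.40), and Tbx20, a T-box gene (2.45, SE 0.22). Msx2 passed the filter only through its ABSC counts, so its rise is given as a value and not as support. With the replicate block 5 rose and 2 fell, where 19.4% of all genes tested were called. Without the libraries numbered 1, when 15 were tested, 8 rose and 3 fell, where 4622 of 16224 genes were called. Foxf1 of the allantois had 6 counts in all, and Hand2, the paralog of Hand1, had 1. The list was drawn up with these changes already known, so its count is no independent evidence.

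Of 20 paralogs of the 10 factors listed, 12 were tested, and Tead1 (1.06, SE 0.26) and Elf3 (0.94, SE 0.16) rose in ABSCs against AFSCs while 0 fell, with a list median of 0.01. With the replicate block 2 rose and 2 fell, where 19.4% of all genes tested were called. In ABSCs against ALSCs 1 rose and 4 fell, where 5.41% of all genes tested rose and 5.56% fell. Ets1 (0.82) was higher, and Elf2 (-0.44), Gata1 (-1.70), Gata4 (-2.66) and Gata6 (-2.74) were lower. Gata1 and Gata4, with 15 and 10 counts in ABSCs, passed the filter only through their ALSC counts. Their falls are thus given as values and not as support. Cdx1 had 39 counts and Cdx4 had 6 over all libraries. Per length, the TEAD genes were led by Tead2 in ABSCs, at 174 TPM, followed by Tead1 at 53.0 TPM, Tead3 at 8.24 TPM and Tead4 at 5.21 TPM.

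**Figure D5:**
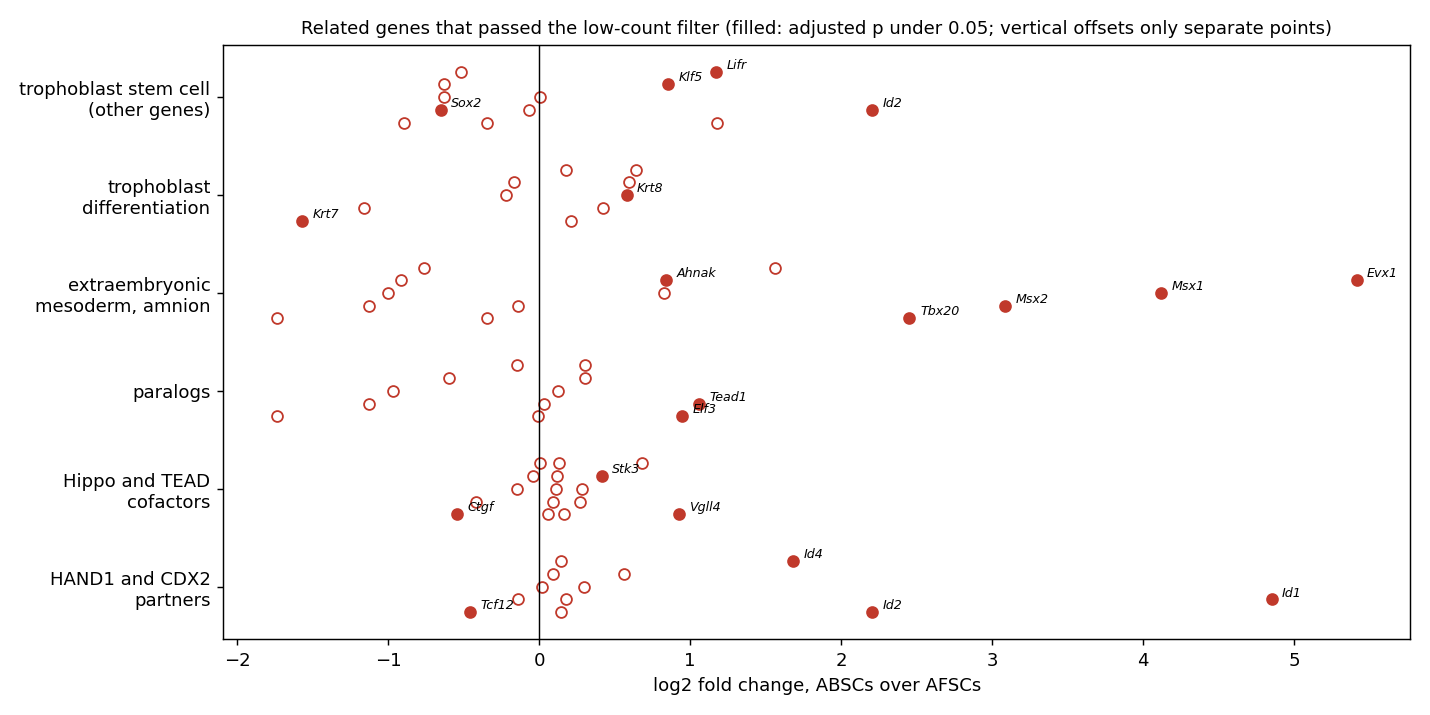
Log2 fold change of ABSCs over AFSCs (x axis) for tested genes of 6 lists, with filled and named points for an adjusted p under 0.05. The vertical offsets within a list only separate points. Evx1 at 5.41 and Id1 at 4.85 lie farthest to the right, and Krt7 at -1.57 is the lowest called gene.

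Of 18 genes of the Hippo pathway and TEAD cofactors, 16 were tested. Vgll4, a TEAD cofactor that competes with YAP (0.92, SE 0.13), and the kinase gene Stk3 (0.41, SE 0.10) rose in ABSCs against AFSCs, and the YAP target Ctgf fell (-0.54, SE 0.14), with a list median of 0.11. Ctgf was at 26.8 ± 1.72 CPM in ABSCs, 62.0 ± 3.86 CPM in ALSCs and 39.1 ± 8.39 CPM in AFSCs. With the replicate block 4 rose and 2 fell, where 19.4% of all genes tested were called in either direction. Without the libraries numbered 1 it was 7 and 2, where 4622 of 16224 genes tested were called.

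Of 12 partners and inhibitors of HAND1 and CDX2, all were tested, and 3 rose and 1 fell, with a list median of 0.16. Inhibitors that bind the E-protein partners of HAND1 were those that rose: Id1 (4.85, SE 0.42), Id2 (2.20) and Id4 (1.68, SE 0.30). Tcf12, an E protein, fell (-0.46, SE 0.08). Without the libraries numbered 1 the count was 6 and 2, where 4622 of 16224 genes tested were called. Id2 thus counts in this list and in that of trophoblast stem cells.

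Endoderm markers were in part lower in ABSCs. Of 11 endoderm markers 7 were tested, and Foxa2 (-5.64, SE 0.27) and Sox17 (-3.82, SE 0.67) fell in ABSCs against AFSCs while 0 rose. With the replicate block 4 fell, where 19.4% of all genes tested were called. Without the libraries numbered 1 it was 5, where 4622 of 16224 genes were called. Sox7, which was not tested, went the other way, with 37 counts in ABSCs, 18 in ALSCs and 17 in AFSCs. The list's summed level was 6.88 to 9.36 CPM in ABSCs, 31.6 to 43.1 CPM in ALSCs and 28.1 to 33.1 CPM in AFSCs, and Ttr was at 0 counts throughout. Foxa2 made up much of this sum outside ABSCs, with means of 0.307, 17.2 and 15.5 CPM in ABSCs, ALSCs and AFSCs. Of 8 fibroblast markers 5 were tested and 0 were called in ABSCs against AFSCs (by edgeR; 0 rose and 2 fell with the replicate block), with summed levels of 10.1 to 18.0, 11.9 to 25.7 and 17.5 to 19.6 CPM in the same order of groups. The summed epiblast markers were at 3385 to 3823 CPM in ABSCs, 3312 to 3699 CPM in ALSCs and 4102 to 4232 CPM in AFSCs. In ABSCs against AFSCs 2 of 8 rose and 5 fell, where 3.98% of all genes tested rose and 4% fell. Fgf5, a marker of the formative epiblast, fell most (-3.53, SE 0.14). The part of these shifts in the results above was not tested.

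The genes whose levels followed Hand1 most closely over the 9 libraries, by Pearson correlation of log2 CPM among 14389 genes, were Rcn1 (r = 0.995), Alox15 (0.988), Pard3b (0.986), Pdha1 (0.983) and Tut4 (0.983). Rcn1, an endoplasmic reticulum protein gene, averaged 138 CPM in ABSCs, 106 CPM in ALSCs and 95.4 CPM in AFSCs, so likeness in pattern went with a much smaller change. Those most like Cdx2 were Sp8 (r = 0.993), Ube2q1 (0.990), Cul4b (0.986), Plagl1 (0.986) and Pcna (0.985). Sp8, a zinc finger transcription factor gene, shared the low value in ABSC 1, at 8.55, 24.1 and 23.1 CPM in the ABSC libraries. These correlations rest on 3 groups and shared library numbers and are given as a description.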

How the data were processed

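Poly(A) RNA of 9 libraries was sequenced with an unstranded NEBNext Ultra kit, per the labels' protocols. The authors deposited whole-number, unnormalised counts of reads for each gene, made with HISAT2 2.0.5 and featureCounts 1.5.0-p3, per the submitters' processing notes. These name mm9, while 53462 of the 54409 table IDs found in GENCODE M21 (GRCm38) have identical coordinates there, so positions are given as GRCm38. Of 54878 rows, 346 without an Ensembl ID (0.208% to 0.227% of the counts) were left out.

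Counts were filtered with filterByExpr (minimum count 10, minimum total 15), scaled by TMM (0.963 to 1.06) and fitted over all 9 libraries with edgeR 4.0.16 in R 4.3.3, with robust quasi-likelihood F tests. The tests were checked on simulated data. Standard errors were derived from each change and its F value, and 95% intervals use the t distribution of that test. TPM were computed from the deposited counts and gene length. Alternatives were other scalings, no filter, DESeq2 1.42.0, a replicate block, fits of the compared groups only, and leaving out each library or, added after seeing the data, the libraries numbered 1. Same-numbered libraries deviated together from their group means (correlations of 0.197 to 0.554, all above 0.1). Pairing by number was therefore used as the replicate block, an alternative, and was left out of the main fit. The pairing comes from the data and not from the labels, and rests mainly on number 1 (0.464 to 0.554). Between numbers 2 and 3 the correlations were 0.221 to 0.273, within the range of their same-numbered pairs (0.197 to 0.356).

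All 10 factors are named. From each list, up to 4 called genes at 1 CPM or more with the largest change are named, and genes at 0 counts. Other list genes named (Eomes, Esrrb, Pou5f1, Tead2, Tead3, Sox7, Gata4, Gata6, Tbx4, and those with few counts) were chosen after their values were seen. Most-like genes are the 5 with the highest correlation (prior count 2, 1 CPM or more in a group mean). The factors, lists and tests were chosen with earlier results of these data known.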

Additional observations from a re-analysis of the deposited data

How the results depend on the processing

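Hand1 was called in all 3 comparisons under each of the 16 alternative settings, with a log2 change of 9.42 to 10.23 for ABSCs over AFSCs, 6.56 to 6.84 for ABSCs over ALSCs and 2.69 to 3.55 for ALSCs over AFSCs. No called factor changed direction under these settings. Leaving out 1 library at a time gave 2 to 6 factors called in ABSCs against AFSCs (4 with all libraries), 4 to 6 against ALSCs (4) and 1 to 2 in ALSCs against AFSCs (2), and 4 to 7 for any difference (5). In some of these fits the counts include factors outside the 6. Without ABSC 1, 6 were called against AFSCs, though Tead4 (edgeR adjusted p = 0.0973) and Ets2 (0.653) were not. The added factors could pass the filter only through their ABSC counts, so the upper counts are no support. Without a filter on low counts, 7 were called in ABSCs against ALSCs and 1 in ALSCs against AFSCs. Over all 32197 genes then fitted, 1787 and 1226 were called in the same order. The cause of these moves was not tested. Without the libraries numbered 1, 7 were called in ABSCs against AFSCs and 7 against ALSCs, where 4622 and 5225 of all 16224 genes tested were called. Elf5 and Esx1 were not tested there. Both counts of factors include Cdx2, Gata3 and Tfap2a, which then passed the filter only through the high counts of ABSC 2 and ABSC 3. The replicate block gave 4, 5 and 2 factors in ABSCs against AFSCs, ABSCs against ALSCs and ALSCs against AFSCs. Apart from Tfap2c in ABSCs against ALSCs, it changed no other call of a factor. Over all genes it gave 3132, 4605 and 3590 calls in the same order, against 1291, 1775 and 1139 without it, and leaving out 1 library gave 667 to 1723, 846 to 2337 and 345 to 1522. Without the libraries numbered 1 these were 4622, 5225 and 4122, and with only the compared groups 1041 in ABSCs against ALSCs. DESeq2 made the same number of calls among the factors (4, 4 and 2). With library size as the only scaling, Tead4 lost its call against AFSCs (adjusted p = 0.0666), and with only the compared groups in the fit it lost both (adjusted p = 0.0584 against AFSCs and 0.0535 against ALSCs). Fewer than 10 counts per library limit Elf5 in all groups and Gata3, Tfap2a and Esx1 outside ABSCs. In ABSC 1, Gata3 and Tfap2a had 8 counts each as well.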
